A study of Homo sapiens with 18 samples.

Results

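Tight junctions were followed through 7 of their genes: the claudins CLDN1, CLDN4 and CLDN7, occludin (OCLN), the junctional adhesion molecule F11R (JAM-A), and the cytoplasmic plaque proteins TJP1 (ZO-1) and CGN (cingulin). They were taken by symbol from the deposited table of 15896 gene rows, and all 7 were present and passed the filter on low values. RNA was sequenced from N/TERT2G cells, a single immortalized line of human keratinocytes grown in EPILIFE medium with HKGS supplement. The cells were transduced at a multiplicity of infection of 25, the day after plating, with an adenovirus type 5 vector that expresses its insert from the CMV promoter. In the Ad-TEADi groups the insert was TEADi, a green fluorescent protein joined to a nuclear localization signal and to the domains by which VGLL4, YAP1 and TAZ contact TEAD, built to occupy TEAD factors so that YAP1 and TAZ cannot bind them. In the Ad-GFP groups it was the fluorescent protein alone, so all groups carried adenovirus and GFP. Polyadenylated RNA was collected at 12, 24 and 48 h, which gave 6 groups of 3 libraries and 18 libraries in all. The labels do not say that the 3 cultures of a group were grown separately, so the p-values cover only how far these libraries spread, which may be technical.

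A tight junction seals the space between neighbouring epithelial cells. Claudins are membrane-spanning proteins whose type sets which ions and solutes may pass, occludin and the JAM proteins accompany them in the membrane, and ZO proteins and cingulin tie the strands to the actin cytoskeleton. In the epidermis, functional tight junctions lie in the granular layer, while CLDN1 and TJP1 are also made in the living layers beneath it, and loss of CLDN1 leaves mice with a leaking skin barrier.

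Values are TMM normalised CPM (read counts scaled to library size, called TMM values), deposited by the authors. Differences are given as log2 changes of the value plus 1, which understate the change of low genes. The comparison was fitted with limma over all libraries, with Benjamini-Hochberg adjustment across 13417 tested genes. To be called, a gene needed both an adjusted p below 0.05 and a difference of 1.5-fold or more. In the sequenced bulk cultures, fewer cells of a type and less RNA per cell cannot be told apart.

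Library depth lay between 14.2 M and 26.7 M estimated reads. The deepest library was Ad-TEADi replicate 3 at 24 h, against 18.8 M and 18.4 M in the other libraries of its group, and these 3 libraries were spread more widely on the first principal component (-3.3, 2.0 and 5.0) than those of any other group. The TEAD target genes CTGF and CYR61 served as a check of the vector: CTGF was at 7.06 ± 0.38 in Ad-TEADi and 62.1 ± 5.4 in Ad-GFP cells at 48 h (SD, n = 3 each), and CYR61 at 158 ± 7 and 499 ± 16. Both were called lower at 24 and 48 h and neither at 12 h. All 7 keratinocyte markers had rows in the table and their TMM values summed to between 24304 and 50538 in every library. At 48 h the sum lay between 47772 and 50538 in Ad-TEADi and between 38100 and 38936 in Ad-GFP libraries. None of the 7 was called then, while 5 passed the adjusted p as higher and 1 as lower, where 50.5% of all genes passed. The melanocyte list had 2 of 7 genes in the table and summed to at most 2.94. Its 1 tested gene, MITF, was called lower at 48 h, at 0.451 ± 0.237 in Ad-TEADi and 1.17 ± 0.22 in Ad-GFP cells (SD, n = 3 each). The fibroblast list had 5 of 7, and its sum lay between 49.1 and 51.9 in Ad-TEADi and between 22.2 and 25.8 in Ad-GFP libraries at 48 h, with COL1A1 at 39.5 ± 1.5 and 20.4 ± 1.9 and DCN at 8.34 ± 1.75 and 0.153 ± 0.024, both called higher, and THY1 at 1.32 ± 0.42 and 2.49 ± 0.46, called lower (SD, n = 3 each). DCN passed the filter only through the Ad-TEADi libraries at 48 h, so only a rise in that group could have brought it into the test. It had 151 to 184 reads there and 2 to 3 in the Ad-GFP libraries at 48 h. COL1A2 was tested and not called, and COL3A1 was too low to be tested. The simple epithelial list (KRT7, KRT8, KRT18, KRT19, MUC1) summed to between 652 and 687 in Ad-TEADi and between 965 and 1041 in Ad-GFP libraries at 48 h. Of its 4 tested genes KRT18 was called lower (261 ± 3 and 527 ± 27) and MUC1 was called higher (6.68 ± 0.41 and 2.54 ± 0.36). The 2 of 7 endothelial and immune genes with rows, CD68 and VWF, summed to between 47.9 and 57.1 and between 33.5 and 39.7. Nearly all of that sum was CD68 (51.25 ± 4.93 and 36.06 ± 3.01), which was not called. The part of these lists in the results that follow was not tested.

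The stretches of DNA before the transcription starts of the 4 genes called in a comparison of Ad-TEADi with Ad-GFP are shown because CLDN4, CLDN7 and CGN were called in one direction and OCLN in the other. They are the 250 bases upstream of the RefSeq start in build GRCh38.p14, each written 5′ to 3′ on the strand of its gene, with matches to the motifs searched in capitals. The most upstream start was taken where RefSeq gives several. CLDN4 (chr7:73830746-73830995, plus strand), CLDN7 (chr17:7263214-7263463, minus strand), OCLN (chr5:69492297-69492546, plus strand) and CGN (chr1:151511137-151511386, plus strand) read as follows.
CLDN4: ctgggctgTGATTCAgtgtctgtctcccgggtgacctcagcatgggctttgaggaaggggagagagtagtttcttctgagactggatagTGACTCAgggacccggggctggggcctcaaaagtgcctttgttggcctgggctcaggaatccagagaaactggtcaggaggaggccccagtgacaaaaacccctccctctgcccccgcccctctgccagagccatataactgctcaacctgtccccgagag
CLDN7: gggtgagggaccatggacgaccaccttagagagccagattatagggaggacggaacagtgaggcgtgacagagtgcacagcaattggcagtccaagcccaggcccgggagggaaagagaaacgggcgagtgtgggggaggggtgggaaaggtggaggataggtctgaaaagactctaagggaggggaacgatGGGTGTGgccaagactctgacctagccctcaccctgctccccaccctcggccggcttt
OCLN: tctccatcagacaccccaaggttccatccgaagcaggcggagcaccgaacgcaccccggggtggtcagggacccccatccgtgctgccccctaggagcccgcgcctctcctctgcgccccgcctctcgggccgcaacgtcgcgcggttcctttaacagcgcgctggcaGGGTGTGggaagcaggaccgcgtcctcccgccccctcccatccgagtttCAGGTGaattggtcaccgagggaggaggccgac
CGN: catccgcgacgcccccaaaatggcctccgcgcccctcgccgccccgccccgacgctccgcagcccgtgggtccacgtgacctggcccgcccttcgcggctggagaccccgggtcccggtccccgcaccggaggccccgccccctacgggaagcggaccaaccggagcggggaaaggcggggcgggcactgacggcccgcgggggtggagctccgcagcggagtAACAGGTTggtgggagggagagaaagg
The letters searched, on both strands, were GGAATG (TEAD), AACNGGTT (grainyhead-like), GGGTGTG and GGGCGTG (KLF), TGANTCA (AP-1) and CAGGTG (the E-box of SNAI and ZEB factors). None of the printed matches overlaps another.

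CLDN4 held TGANTCA at positions -242 and -161, counted in bases from its start, letters found in 7.71% of all 35116 RefSeq windows of 250 bases before to 50 after a start. CGN held the grainyhead-like letters at -27, against 1.73% of all windows. GGGTGTG stood at -58 in CLDN7 and at -82 in OCLN (7.56% of all windows), and CAGGTG at -33 in OCLN (20.6%). CAGGTG was also in the other OCLN window (-133 and 35), in a TJP1 window (-88) and in the other CLDN7 window (5 matches), so that 4 of 11 windows held it. The TEAD letters were in 0 of 11 windows that RefSeq gives for 6 of the 7 genes, against 14% of all windows. GGGCGTG (8.68% of all windows) was found in that other CLDN7 window, 1 of 11. A match is a description of the sequence, and a missing match says only that these letters are not in this window.

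**Figure D1:**
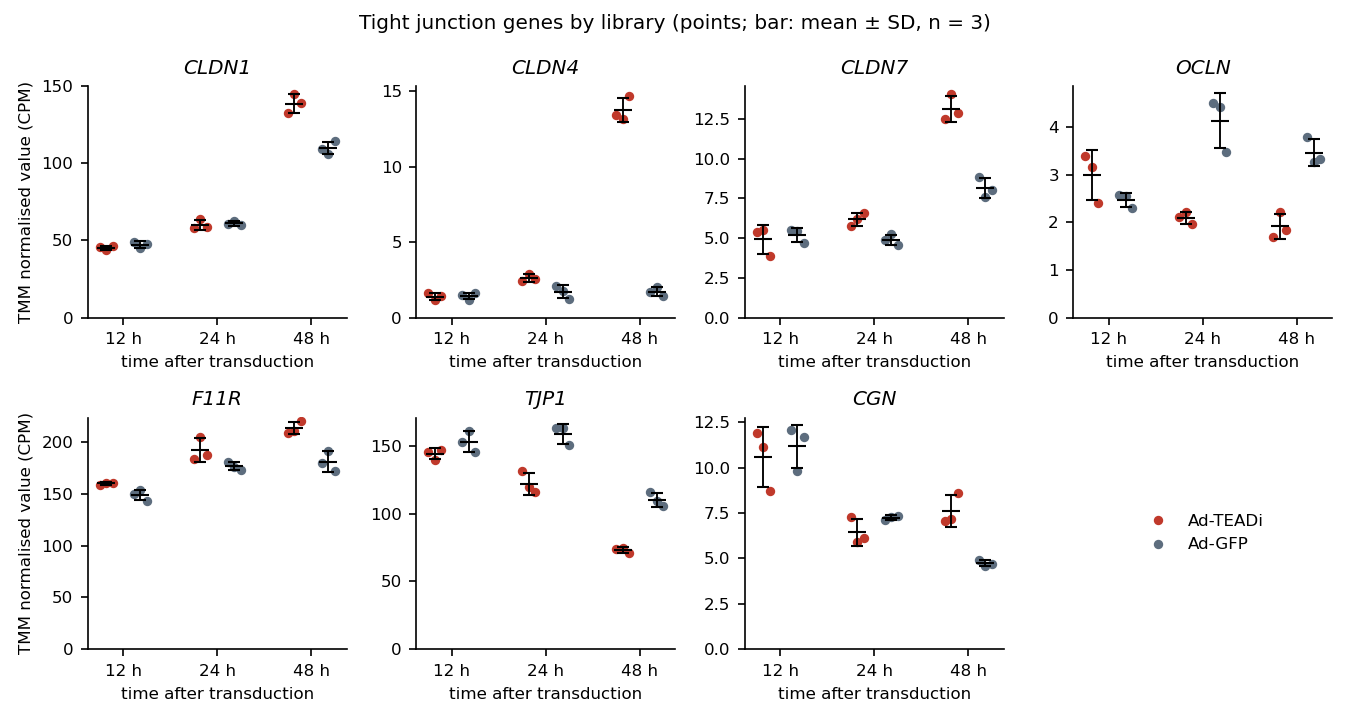
TMM normalised value (CPM, linear axis from 0) of the 7 genes in each of the 18 libraries by time after transduction; points are libraries, bars the mean ± SD of 3, with Ad-TEADi in red left of Ad-GFP in grey. CLDN4 stands between 13.2 and 14.7 in the Ad-TEADi libraries at 48 h and under 3 in all others, whereas OCLN and TJP1 are lower in every Ad-TEADi library from 24 h.

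At 12 h none of the 7 genes was called, against 0.0447% of all tested genes (6 of 13417). F11R alone had an unadjusted p under 0.05 at that time, as did 2436 of the 13417 tested genes. The median log2 change over the 7 genes was -0.06, beside 0.00 over all genes. At 24 h OCLN was called lower, 1 of 7 genes where 1.79% of all genes were called, and the median was -0.02 beside 0.00. At 48 h CLDN4, CLDN7 and CGN were called higher and OCLN lower, 4 of 7 where 12.6% of all genes were called, and the median was 0.33 beside -0.03. Without the fold limit all 7 genes passed the adjusted p at 48 h, 5 higher and 2 lower, as did 6775 of the 13417 tested genes (50.5%). With a pseudocount of 0.1 TJP1 was called lower as well at 48 h, and with a pseudocount of 5 CLDN4 alone was called. On the deposited TPM values, where CLDN4, OCLN, TJP1 and CGN lie under 1 in every library, 0 of 7 were called at 48 h with a pseudocount of 1 and CLDN4 and CLDN7 with one of 0.1. The libraries of the Ad-TEADi and Ad-GFP groups did not overlap for any of the 7 genes at 48 h, for 5 at 24 h and for 1 at 12 h, where 58.6%, 34.2% and 21.9% of all tested genes did not overlap.

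**Figure D2:**
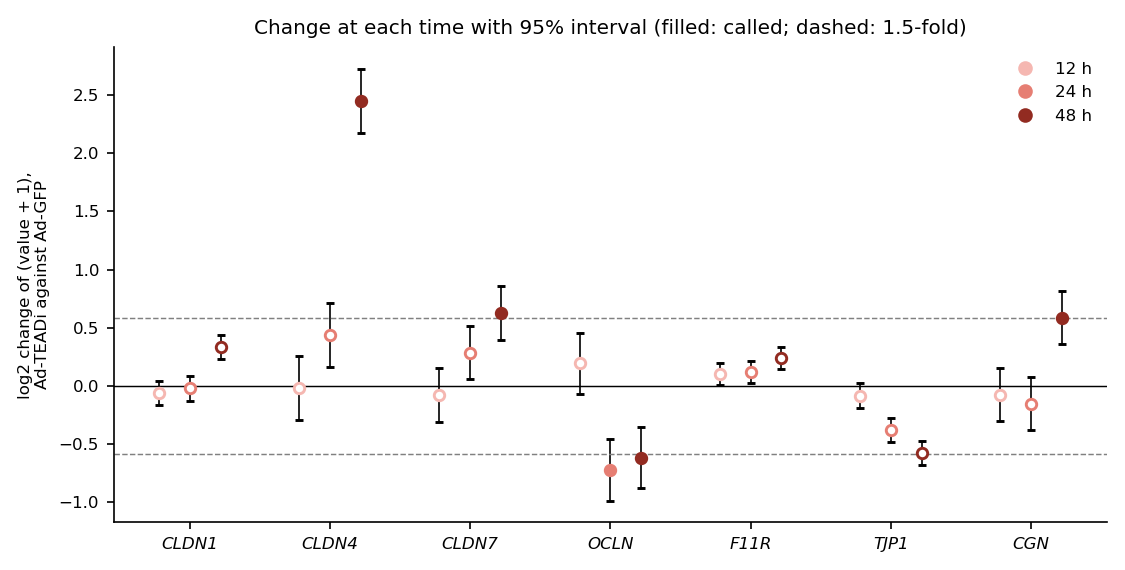
Log2 change of (TMM value + 1) in Ad-TEADi against Ad-GFP cells at 12, 24 and 48 h for each gene, with 95% intervals from limma; filled points were called and dashed lines mark a 1.5-fold change. CLDN4 reaches 2.45 at 48 h, CLDN7 and CGN lie just above the upper line, OCLN lies below the lower one at 24 and 48 h, and TJP1 ends just inside it.

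Among the claudins, CLDN4 changed most. CLDN4, a claudin of the upper epidermal layers and of many simple epithelia, lies on chromosome 7 (chr7:73213872-73247020 in hg19, plus strand). Its TMM values were 13.4, 13.2 and 14.7 in Ad-TEADi libraries and 1.67, 2.03 and 1.42 in Ad-GFP libraries at 48 h. No Ad-GFP library at any time came near the Ad-TEADi level. The means were 13.8 ± 0.8 and 1.71 ± 0.31 (SD, n = 3 each), an 8.06-fold difference, and the log2 change was 2.45 ± 0.14 (SE, adjusted p = 3.4e-16). It stayed between 2.37 and 2.54 when any 1 library of the comparison was left out.

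Most of the CLDN4 difference appeared between 24 and 48 h. At 24 h its TMM values were 2.41, 2.90 and 2.57 in Ad-TEADi libraries and 2.11, 1.75 and 1.26 in Ad-GFP libraries. The groups were separate but close, and the log2 change of 0.43 ± 0.14 passed the adjusted p (0.0222) without reaching the fold limit. It missed the adjusted p without Ad-TEADi replicate 2 (0.38, adjusted p = 0.105), Ad-TEADi replicate 3, the deepest library (0.44, adjusted p = 0.0543), or Ad-GFP replicate 3 (0.31, adjusted p = 0.161). With a pseudocount of 0.1 in place of 1 it was 0.62 and was called. At 12 h the values were 1.60, 1.18 and 1.41 in Ad-TEADi and 1.47, 1.20 and 1.63 in Ad-GFP libraries, and the groups overlapped. The response at 48 h exceeded that at 24 h by 2.02 ± 0.19 on the log2 scale (adjusted p = 1.9e-09). CLDN4 rested on 260 to 297 reads in Ad-TEADi and 31 to 46 in Ad-GFP libraries at 48 h. Its row in the table is placed on a patch contig of hg19, so reads could have gone to either copy of the gene.

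CLDN7, a claudin of the lateral membrane that also binds EPCAM, was higher at 48 h by a smaller margin (chr17:7163222-7167302 in hg19, minus strand). The Ad-TEADi libraries held TMM values of 12.5, 14.1 and 12.9 and the Ad-GFP libraries 8.85, 7.61 and 8.05. All 3 Ad-TEADi libraries were above all 3 Ad-GFP libraries. The ratio of the means was 1.61 and the log2 change 0.63 ± 0.11 (SE, adjusted p = 2.0e-05). Without Ad-TEADi replicate 2 the log2 change was 0.58, and without Ad-GFP replicate 2 it was also 0.58, both under the fold limit with adjusted p of 3.7e-04 and 3.6e-04. At 24 h the means were 6.18 ± 0.42 and 4.89 ± 0.33 (SD, n = 3 each) with a log2 change of 0.29 (adjusted p = 0.0756). At 12 h they were 4.92 ± 0.92 and 5.21 ± 0.43. The gene overlaps ELP5 on the opposite strand, whose TMM value averaged 19.2 in Ad-TEADi and 23.4 in Ad-GFP cells at 48 h, and no source used here gives the strandedness, so reads of the overlap could belong to either gene. GENCODE also lists a protein-coding model over CLDN7 on the same strand, which has no row of its own. The processed pseudogene CLDN7P1 has no row in the table either. Whether reads of these 2 were counted in CLDN7 was not tested.

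CLDN1, the main claudin of the epidermis (chr3:190023496-190040235 in hg19, minus strand), was abundant in every library. At 48 h it stood at TMM values of 132, 145 and 139 in Ad-TEADi and 109, 106 and 114 in Ad-GFP libraries, with no overlap. The log2 change was 0.33 ± 0.05 (SE, adjusted p = 2.5e-06), a 1.26-fold difference under the fold limit. At 24 h the means were 60.1 ± 3.4 and 61.0 ± 1.4, and at 12 h 45.2 ± 1.4 and 47.2 ± 2.2 (SD, n = 3 each), and the groups overlapped at both times. The response at 48 h exceeded that at 24 h by 0.36 ± 0.07 (adjusted p = 5.8e-04). Over time in culture CLDN1 was called higher with both vectors. Ad-GFP cells at 48 h exceeded those at 12 h by 1.20 ± 0.05 on the log2 scale (adjusted p = 1.3e-18), and Ad-TEADi cells by 1.60 ± 0.05 (adjusted p = 1.3e-22).

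To compare claudins with each other, TMM values were divided by the length of the canonical GENCODE transcript, because the deposited TPM values divide by the genomic span of a gene, introns included. On that scale the 8 claudins in the table summed to 74.4 ± 3.3 per kb in Ad-TEADi and 55.3 ± 0.5 per kb in Ad-GFP cells at 48 h (SD, n = 3 each). At 24 h the sums were 40.0 ± 2.0 and 39.0 ± 0.7, and at 12 h 33.0 ± 0.8 and 32.7 ± 1.5. CLDN4 made up 10.9% ± 0.8 of the sum in Ad-TEADi and 1.82% ± 0.34 in Ad-GFP cells at 48 h. CLDN1 made up 54.1% ± 0.1 and 57.7% ± 2.1, and CLDN7 11.5% ± 0.3 and 9.58% ± 0.65. CLDN12 (TMM value of 49.1 ± 3.4 in Ad-TEADi and 48.4 ± 0.1 in Ad-GFP cells) was at 18.7% ± 0.5 and 24.8% ± 0.2. No test of these shares was run.

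**Figure D3:**
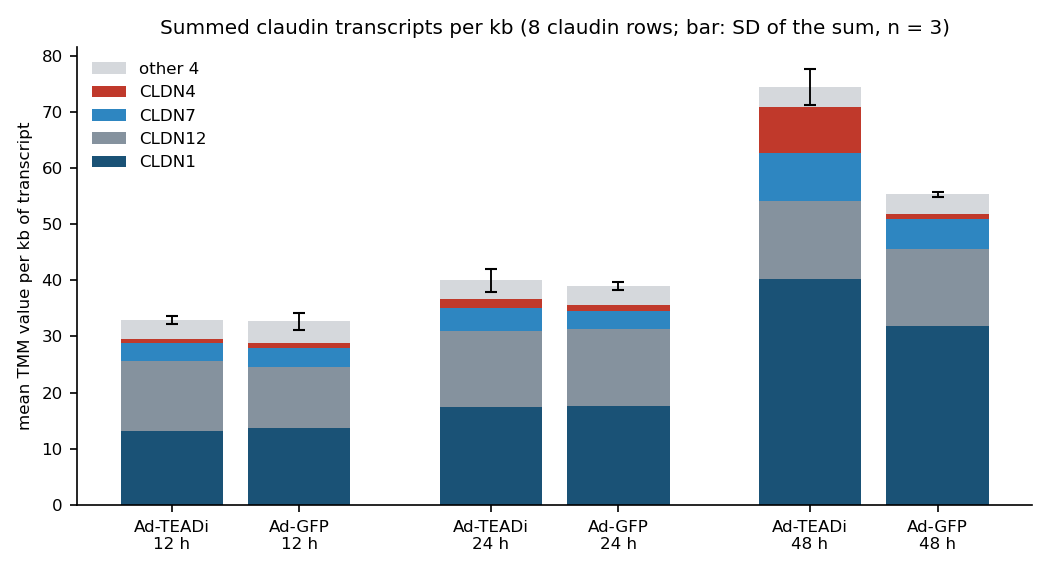
Mean TMM value per kb of canonical transcript, summed over the 8 claudin genes with rows in the table, in each group by time, with Ad-TEADi left of Ad-GFP; the bar on top is the SD of the sum over 3 libraries and the grey top segment holds the other 4 claudins. The Ad-TEADi sum at 48 h is 74.4 against 55.3 in Ad-GFP cells, and the CLDN4 segment is 8.12 against 1.01 per kb.

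OCLN, a MARVEL-domain protein that shapes the strands that claudins form (chr5:68788119-68853931 in hg19, plus strand), was lower in Ad-TEADi cells from 24 h. At 24 h its TMM values were 2.12, 2.21 and 1.97 in Ad-TEADi and 4.51, 4.43 and 3.48 in Ad-GFP libraries. The groups were well apart. The Ad-GFP mean was 1.97-fold the Ad-TEADi mean, and the log2 change was -0.73 ± 0.13 (SE, adjusted p = 9.7e-05), between -0.82 and -0.67 with any 1 library left out and -0.69 without the deepest one (adjusted p = 0.00121). At 48 h the values were 1.70, 2.21 and 1.84 in Ad-TEADi and 3.79, 3.27 and 3.34 in Ad-GFP libraries. The groups again did not overlap, and the log2 change was -0.62 ± 0.13 (SE, adjusted p = 1.6e-04). Without Ad-TEADi replicate 1 or without Ad-GFP replicate 1 it was -0.56 or -0.57, under the fold limit, with adjusted p of 0.00163 and 0.00193.

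At 12 h the order was not the same. OCLN stood at 3.40, 3.17 and 2.40 in Ad-TEADi and 2.57, 2.55 and 2.30 in Ad-GFP libraries, with overlap and a log2 change of 0.19 ± 0.13 (SE, adjusted p = 0.44). The response at 24 h minus that at 12 h was -0.92 ± 0.18 on the log2 scale (adjusted p = 0.00125), 1 of 7 genes called in that comparison, where 1.5% of all genes were called, with a median of 0.02 beside 0.00. The responses at 48 h and 24 h differed by 0.11 ± 0.18, with a 95% interval of -0.27 to 0.48. Over time the level in Ad-GFP cells at 48 h exceeded that at 12 h by 0.36 (adjusted p = 0.0174), and in Ad-TEADi cells the log2 change was -0.45 (adjusted p = 0.0029), neither past the fold limit. OCLN was a low gene, with 32 to 57 reads in Ad-TEADi and 60 to 89 in Ad-GFP libraries at 24 and 48 h, and GUSBP3, which overlaps it on the opposite strand, averaged 1.44 in Ad-TEADi and 0.805 in Ad-GFP cells at 24 h. The unprocessed pseudogene OCLNP1 has no row in the table, and whether its reads were counted in OCLN was not tested. A pseudocount of 5 brought the log2 change of OCLN at 24 h to -0.36 and at 48 h to -0.29, with adjusted p of 4.1e-05 and 1.4e-04. Both calls were thus lost to the fold limit.

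F11R, the immunoglobulin-type adhesion molecule JAM-A that recruits polarity proteins to early contacts (chr1:160965001-160991133 in hg19, minus strand), was the most abundant of the 7 genes per kb of transcript in every group. Its TMM values at 48 h were 209, 211 and 220 in Ad-TEADi and 180.4, 192 and 172 in Ad-GFP libraries. The groups did not overlap. The log2 change was 0.24 ± 0.05 (SE, adjusted p = 6.6e-05), a 1.18-fold difference. At 24 h the means were 193 ± 11 and 177 ± 4, and at 12 h 160.2 ± 1.4 and 149 ± 5 (SD, n = 3 each), with log2 changes of 0.12 (adjusted p = 0.0682) and 0.10 (adjusted p = 0.228). A second gene model overlaps F11R on the same strand, averaging a TMM value of 42.1 over all libraries, and reads of the overlap could have gone to either.

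TJP1, the scaffold that gathers claudins and links them to actin (chr15:29991571-30261118 in hg19, minus strand), was lower in Ad-TEADi cells from 24 h. Its log2 changes of the value plus 1 did not reach the fold limit. At 48 h its TMM values were 73.9, 75.0 and 70.9 in Ad-TEADi and 116, 109 and 105 in Ad-GFP libraries. At 24 h they were 131, 119.5 and 116 in Ad-TEADi and 163, 163 and 151 in Ad-GFP libraries. Every Ad-TEADi library was below every Ad-GFP library at both times. The Ad-GFP mean was 1.5-fold the Ad-TEADi mean at 48 h and 1.3-fold at 24 h, before 1 is added. The log2 changes were -0.58 ± 0.05 at 48 h (SE, adjusted p = 2.3e-11) and -0.38 ± 0.05 at 24 h (adjusted p = 1.6e-06), that at 24 h being -0.34 without the deepest library (adjusted p = 6.6e-05).

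The 1.5-fold limit lay between them in size at 48 h, with TJP1 at -0.581 just short of a call and CGN at 0.586 just past it. TJP1 was called lower at 48 h without Ad-TEADi replicate 1 or 2 (-0.59 and -0.60) and without Ad-GFP replicate 2 or 3 (-0.59 and -0.61). At 12 h its means were 144 ± 4 and 153 ± 8 (SD, n = 3 each), with overlap. The response at 24 h differed from that at 12 h by -0.29 ± 0.07 (SE, adjusted p = 0.00851) and that at 48 h from that at 24 h by -0.20 ± 0.07 (adjusted p = 0.0421). In Ad-TEADi cells TJP1 at 48 h was called lower than at 12 h (log2 change of -0.97 ± 0.05, adjusted p = 2.4e-17), and in Ad-GFP cells the change was -0.47 ± 0.05 (adjusted p = 2.3e-09). The pseudogene HMGN2P5, on the opposite strand inside TJP1, averaged 1.78 in Ad-TEADi and 3.36 in Ad-GFP cells at 48 h. GENCODE also lists a long noncoding RNA over TJP1 on the same strand, without a row of its own. Whether its reads were counted in TJP1 was not tested.

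CGN, the cingulin that joins ZO proteins to myosin and to the exchange factor ARHGEF2 (chr1:151482986-151511168 in hg19, plus strand), was called higher in Ad-TEADi cells at 48 h. At 48 h its TMM values were 7.06, 7.16 and 8.62 in Ad-TEADi and 4.90, 4.58 and 4.67 in Ad-GFP libraries. The groups did not overlap, and Ad-TEADi replicate 3 was the highest. The ratio of the means was 1.61 and the log2 change 0.59 ± 0.11 (SE, adjusted p = 4.6e-05). Without Ad-TEADi replicate 3 it was 0.50 (adjusted p = 0.00106), and without Ad-GFP replicate 2 or 3 it was 0.57 or 0.58, all under the fold limit.

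At 24 h the CGN values were 7.28, 5.89 and 6.13 in Ad-TEADi and 7.12, 7.26 and 7.36 in Ad-GFP libraries. At 12 h they were 11.9, 11.1 and 8.71 in Ad-TEADi and 12.1, 9.83 and 11.7 in Ad-GFP libraries. The groups overlapped at both times, with log2 changes of -0.15 (adjusted p = 0.383) and -0.08 (adjusted p = 0.759). The response at 48 h exceeded that at 24 h by 0.74 ± 0.16 (SE, adjusted p = 7.5e-04), so that CGN and CLDN4 were the 2 of 7 genes called in that comparison, where 6.06% of all genes were called, with a median of 0.34 beside -0.03. In Ad-GFP cells CGN was called lower at 48 h than at 12 h, with a log2 change of -1.09 ± 0.11 (adjusted p = 8.1e-10). In Ad-TEADi cells the change was -0.42 ± 0.11 (adjusted p = 0.00134). CGN was 1 of 2 genes called over time in Ad-GFP cells, beside CLDN1, where 13.6% of all genes were called, with a median of 0.28 beside 0.03. In Ad-TEADi cells 4 of 7 genes were called over time, CLDN1, CLDN4 and CLDN7 higher and TJP1 lower, where 26.2% of all genes were called, with a median of 0.41 beside 0.01. The log2 change was 2.63 ± 0.14 for CLDN4 (adjusted p = 1.3e-17) and 1.27 ± 0.11 for CLDN7 (adjusted p = 1.1e-11), and 0.15 ± 0.14 and 0.56 ± 0.11 in Ad-GFP cells.

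Per kb of transcript, the order of the 7 genes at 48 h in Ad-TEADi cells was F11R (46.1), CLDN1 (40.2), TJP1 (10.2), CLDN7 (8.52), CLDN4 (8.12), CGN (1.49) and OCLN (0.310), as mean TMM values per kb. CLDN7 and CLDN4 overlapped between libraries and all other neighbours were separate. In Ad-GFP cells it was F11R (39.1), CLDN1 (31.9), TJP1 (15.3), CLDN7 (5.30), CLDN4 (1.01), CGN (0.925) and OCLN (0.561), with CLDN4 and CGN overlapping. At 12 h TJP1 came before CLDN1 in both groups, with TJP1 at 20.1 and CLDN1 at 13.1 in Ad-TEADi and TJP1 at 21.3 and CLDN1 at 13.7 in Ad-GFP cells. At 24 h TJP1 and CLDN1 overlapped in Ad-TEADi cells (17 and 17.4) and were separate in Ad-GFP cells (22.1 and 17.7).

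A wider list of tight junction genes was counted beside them: other claudins, MARVEL and tricellular proteins, JAM-type proteins, scaffolds and polarity proteins, of which 31 of 53 had rows in the table and 29 passed the filter. At 48 h 2 of the 29 were called higher and 2 lower, with a median log2 change of 0.09, where 12.6% of all genes were called. CXADR, the JAM-type receptor through which adenovirus type 5 enters cells, was at 14.8 ± 1.0 in Ad-TEADi and 7.21 ± 1.32 in Ad-GFP cells (log2 change of 0.96, adjusted p = 4.9e-08). PARD6G, of the PAR polarity complex, was at 51.0 ± 1.8 and 30.5 ± 0.4 (0.73, adjusted p = 1.4e-10). ARHGEF2, the exchange factor that cingulin binds, was lower at 113 ± 4 in Ad-TEADi and 182 ± 8 in Ad-GFP cells (-0.68, adjusted p = 1.3e-13). CLDN11 was lower at 0.280 ± 0.050 and 1.78 ± 0.48 (-1.11, adjusted p = 1.4e-06), but rested on 3 to 6 reads in Ad-TEADi and 29 to 52 in Ad-GFP libraries. None of the 29 was called at 24 h or at 12 h, where 9 and 10 had an unadjusted p under 0.05, beside 4025 and 2436 of the 13417 tested genes.

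Of the genes on that list that were not called, up to 3 with the highest deposited TPM were named from each group of proteins. RAB13, a GTPase that delivers junction proteins to the membrane, was at 98.0 ± 4.8 in Ad-TEADi and 67.9 ± 1.4 in Ad-GFP cells at 48 h (log2 change of 0.52, adjusted p = 2.1e-09), and the tricellular protein LSR at 132 ± 7 and 117 ± 5 (0.17, adjusted p = 0.00815). MARVELD2 was at 32.7 ± 1.5 and 27.0 ± 1.4 (0.27, adjusted p = 0.0011) and MARVELD3 at 10.1 ± 1.2 and 8.50 ± 0.53 (0.21, adjusted p = 0.0775). CLDN12, CLDN15 and CLDN23 had log2 changes of 0.02, 0.30 and 0.14, with adjusted p of 0.803, 0.11 and 0.54. YBX3, SYMPK, CRB3, PRKCI and MPP5 had log2 changes from -0.16 to 0.09, and of these SYMPK and MPP5 passed the adjusted p.

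Of 5 tested claudin partners 1 was called at 48 h, where 12.6% of all genes were called. EPCAM, which binds CLDN7 and keeps it from degradation, was called lower at 48 h, at 6.84 ± 0.65 in Ad-TEADi and 14.6 ± 1.5 in Ad-GFP cells (log2 change of -0.996, adjusted p = 9.8e-10), and its response at 24 h was below that at 12 h (-0.66 ± 0.15, adjusted p = 0.00381). The protease inhibitors SPINT1 and SPINT2 had log2 changes of 0.12 (adjusted p = 0.0402) and -0.27 (adjusted p = 3.0e-05).

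**Figure D4:**
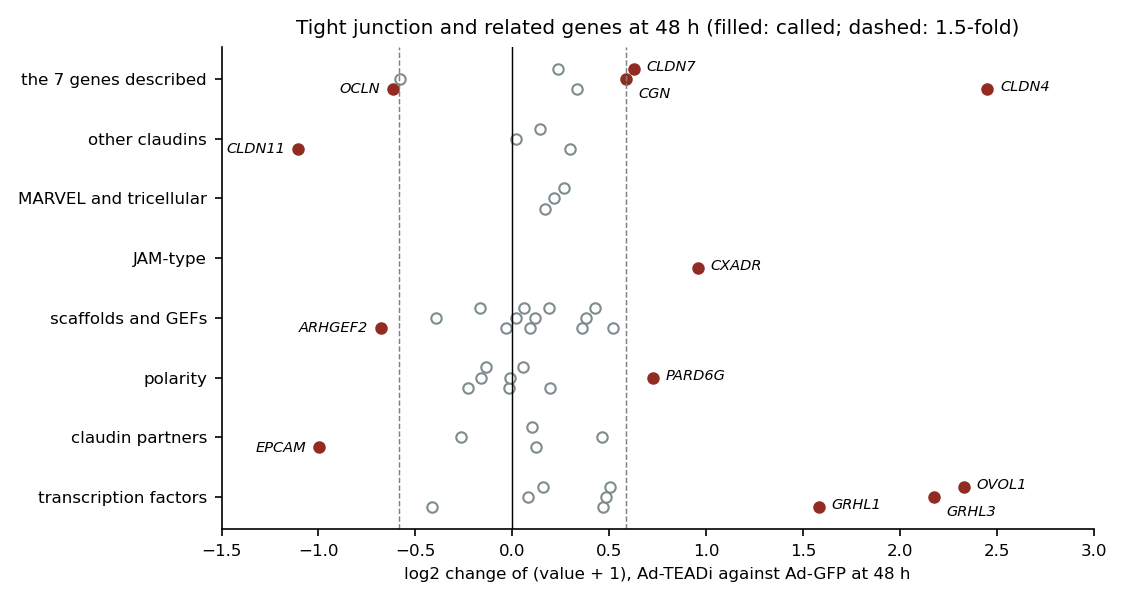
Log2 change of (TMM value + 1) in Ad-TEADi against Ad-GFP cells at 48 h for the 7 genes and each related list; every point is a tested gene, filled and named where called, and dashed lines mark a 1.5-fold change. Of the 29 genes of the wider tight junction list 2 are called higher and 2 lower, beside 3 and 1 of the 7 genes, where 12.6% of all tested genes were called.

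Among 9 tested transcription factors of epithelial junctions, 3 were called higher at 48 h and none lower, where 12.6% of all genes were called, and 2 were called higher at 24 h, where 1.79% were called. GRHL3, a grainyhead-like factor of epidermal barrier formation, was at 10.1 ± 2.3 in Ad-TEADi and 5.01 ± 0.53 in Ad-GFP cells at 24 h (log2 change of 0.87, adjusted p = 3.7e-06) and at 28.3 ± 1.3 and 5.50 ± 0.44 at 48 h (2.17, adjusted p = 7.0e-16). OVOL1, a zinc finger factor of differentiating keratinocytes, was at 1.88 ± 0.46 and 0.722 ± 0.230 at 24 h (0.74, adjusted p = 0.001) and at 8.96 ± 1.23 and 0.973 ± 0.174 at 48 h (2.33, adjusted p = 6.1e-14). GRHL1 was at 3.85 ± 0.57 in Ad-TEADi and 0.614 ± 0.048 in Ad-GFP cells at 48 h (1.58, adjusted p = 2.7e-10). KLF4, KLF5 and SNAI2 passed the adjusted p at 48 h with log2 changes of 0.47, 0.50 and 0.49, under the fold limit.

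Markers of differentiation were taken as a check of the cell state. IVL (involucrin) was at 39.0 ± 1.8 in Ad-TEADi and 3.54 ± 0.63 in Ad-GFP cells at 48 h, TGM1 at 23.8 ± 2.0 and 5.82 ± 0.47, and KRT10 at 17.1 ± 1.5 and 10.1 ± 0.5 (SD, n = 3 each). All 3 were called higher at that time. KRT1 was too low to be tested, at 0.969 ± 0.037 and 0.0757 ± 0.0501.

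The genes whose log2 values followed the called members most closely over the 18 libraries were found among 8830 genes with a mean TMM value of at least 10 and no doubt over copies. The libraries share vector and time, and the correlations are a description. CLDN4 was most like ZFAND5 (Pearson r = 0.983) and DSP (0.974), the desmosomal plaque protein desmoplakin, which was at 2021 in Ad-TEADi and 1192 in Ad-GFP cells at 48 h. CLDN7 was most like C4orf3 (0.974) and PBXIP1 (0.973). OCLN was most like PLOD2 (0.892), a collagen lysyl hydroxylase that was at 103 in Ad-TEADi and 187 in Ad-GFP cells at 48 h, and GPN3 (0.870). CGN was most like ZNF75A (0.937) and TRIM38 (0.923).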

How the data were processed

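The labels gave groups, times and replicate numbers. Trimmomatic 0.36, STAR 2.5.1, Partek 8.0.19.0819 and the build hg19 are listed by the submitters' processing notes. The authors filtered genes on low reads and deposited 1 table with TMM normalised CPM values and TPM values. The lowest CPM value of each library is worth 1 read, taken as a read added before scaling. The deposited TPM divide by genomic span: 100.0% of 10482 genes with at least 50 reads in every library lay within 10% of that, and 8.3% of 9610 within 10% of canonical transcript length. Columns of the authors' p-values and fold changes were not used. Of low read estimates 75.3% to 78.1% were whole within 0.01, so no count model was fitted.

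Genes reaching a value of 1 in 3 or more libraries entered limma 3.58.1 in R 4.3.3 on log2(value + 1), with group means over 18 libraries and trend and robust options. The fit was tried on simulated counts, with the same dispersion set for every gene. Only genes above a minimum of reads were changed in them, so that check does not cover low genes. Members and lists were chosen with earlier results of these data known. Named beside the 7 members were listed genes called in an Ad-TEADi comparison, up to 3 uncalled ones of each list with the highest TPM, check genes, and the 2 genes most correlated with each called member. A gene under this rule is not reported here. Alternatives varied the pseudocount, filter, scaling, variance model, thresholds, libraries and a replicate block, and after the data were seen TPM values with a pseudocount of 0.1 and values per kb.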

Additional observations from a re-analysis of the deposited data

Results flagged for a closer look

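Responses to Ad-TEADi that differed between times were set down for the 7 genes and the related genes named, each as a log2 difference of the responses with its SE from limma. Between 48 and 24 h the response of CLDN4 differed by 2.02 ± 0.19 (adjusted p = 1.9e-09), that of CGN by 0.74 ± 0.16 (adjusted p = 7.5e-04), that of CLDN1 by 0.36 ± 0.07 (adjusted p = 5.8e-04) and that of TJP1 by -0.20 ± 0.07 (adjusted p = 0.0421). Between 24 and 12 h the response of OCLN differed by -0.92 ± 0.18 (adjusted p = 0.00125) and that of TJP1 by -0.29 ± 0.07 (adjusted p = 0.00851).

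Among related genes, CXADR differed by 0.94 and GRHL1 by 1.55 between 48 and 24 h, and EPCAM by -0.66 between 24 and 12 h. GRHL3 differed by 1.07 between 24 and 12 h and by 1.31 between 48 and 24 h, and OVOL1 by 0.78 and 1.59 over the same intervals. Among check genes these 2 differences were -1.34 and -1.15 for CTGF, -0.66 and -0.66 for CYR61, and 0.69 and 2.47 for IVL. KRT10 and TGM1 differed by 0.66 and 2.13 between 48 and 24 h.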

How the results depend on the processing

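The number of the 7 genes called at 24 h was 1, and 2 with a pseudocount of 0.1 (CLDN4 added), 3 without the fold limit, and 0 with a pseudocount of 5, a mean value of at least 10, TPM values, TPM values with a pseudocount of 0.1, or an adjusted p under 0.01 with a 2-fold limit. At 48 h it was 4, and 5 with a pseudocount of 0.1 (TJP1 added at -0.5867, adjusted p = 2.3e-11), 1 with a pseudocount of 5, 0 at a mean of at least 10, 0 with TPM values, 2 with TPM and a pseudocount of 0.1 (CLDN4 and CLDN7), 1 at the stricter limits and 7 without the fold limit. For the difference of 24 and 12 h it was 1, with 0 at a pseudocount of 5, at a mean of at least 10, under both TPM settings and at the stricter limits, and 2 without the fold limit. For the difference of 48 and 24 h it was 2, with 1 at a pseudocount of 5, 0 at a mean of at least 10, 0 with TPM, 1 at the stricter limits and 4 without the fold limit. Over time a pseudocount of 0.1 added CLDN7 in Ad-GFP cells (0.6388) and OCLN in Ad-TEADi cells (-0.6103). The number was 2 in Ad-GFP cells (1 at a mean of at least 10, 1 with TPM, 6 without the fold limit) and 4 in Ad-TEADi cells (2, 2 and 7). The wider list had 4 calls at 48 h, 2 at a mean of at least 10, 0 with TPM, 1 at the stricter limits and 15 of 29 without the fold limit. Over all 13417 tested genes, 2407 passed without the fold limit at 24 h and 6775 (50.5%) at 48 h. For the differences of responses 1329 passed between 24 and 12 h and 2791 between 48 and 24 h. Over time 7516 passed in Ad-GFP and 9128 in Ad-TEADi cells. Counts over all genes under the remaining settings are not given here. A mean of at least 10 removes CLDN4, CLDN7, OCLN and CGN from the test. The deposited TPM of CLDN4, OCLN, TJP1 and CGN lie under the pseudocount of 1 in every library, those of OCLN far under it. For the other lost calls the cause was not tested.

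With 1 library left out, calls among the 7 genes ran from 0 to 0 at 12 h, 1 to 1 at 24 h, 3 to 4 at 48 h, 1 to 1 and 2 to 2 for the differences of responses, 2 to 3 over time in Ad-GFP and 4 to 4 in Ad-TEADi cells, and 4 to 4 for the wider list. At 48 h the genes behind these counts changed with the library left out. CLDN4 kept its call in 6 of 6 such fits, CLDN7 and OCLN in 4 and CGN in 3, and TJP1 was called lower in some of them. Changes of sign were confined to values that had not been called. With TPM values, and with TPM and a pseudocount of 0.1, the 12 h changes turned positive, to 0.0181 and 0.0232 for CLDN1, 0.0023 and 0.0163 for CLDN4, 0.0008 and 0.0021 for TJP1, and 0.0017 and 0.0015 for CGN. The difference of 24 and 12 h turned to -0.0436 and -0.0554 for CLDN1 and -0.0680 and -0.0794 for F11R, and that of 48 and 24 h to 0.0092 for TJP1 with TPM, where it had passed the adjusted p. TPM scaling shifts all genes by 0.09 at 12 h and, from 12 to 48 h, by -0.26 in Ad-TEADi and -0.23 in Ad-GFP cells on the log2 scale. With 1 library left out the 12 h change ran from -0.0926 to 0.0454 for CLDN4, -0.1524 to 0.0571 for CLDN7 and -0.1620 to 0.0434 for CGN, and the 24 h change from -0.0678 to 0.0053 for CLDN1. The difference of 24 and 12 h ran from -0.0058 to 0.0759 for CLDN1, -0.0304 to 0.0484 for F11R and -0.1980 to 0.0074 for CGN.

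Same-numbered libraries did not deviate together (correlations from -0.199 to 0.126 over 9 pairs, 2 over 0.1), so the numbers were not used as pairs. A replicate block left the counts among the 7 genes at 0, 1 and 4 at 12, 24 and 48 h and moved the calls over all genes at 48 h to 1694, against 1686. Depth limits OCLN and CLDN4, which had under 100 reads in most libraries.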
